A study of Mus musculus with 6 samples.

Results

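Divergent promoters, at which transcription of a pair of coding genes starts in opposite directions from the same open region, were examined among the accessible regions of Beko cells. Beko is a mouse progenitor T-cell line with constitutive Notch activity. Open DNA was mapped by ATAC-Seq, which relies on a transposase that cuts accessible chromatin, in 6 libraries. For 3 of them the cells had received DAPT for 24 h, a γ-secretase inhibitor (GSI) that stops the release of active Notch, and for the other 3 they had received only the solvent DMSO for the same time. All 6 come from this line. The deposited data are 1 list of accessible intervals (peaks) shared by all 6 libraries. It gives positions only, so no value below has an error between libraries and GSI was not compared with DMSO. A divergent promoter peak was an autosomal peak that contained start sites of protein-coding transcripts on both strands, from different genes, in the GENCODE vM1 annotation of the mm9 genome. The starts come from the annotation alone, and whether these genes are transcribed in Beko cells was not examined. There were 915 divergent promoter peaks. They made up 2.87% of the 31879 autosomal peaks and 10.4% of the 8773 autosomal peaks with a coding start, and they held 1835 coding genes. The other 7858 peaks with a coding start had coding starts on 1 strand and are called one-strand promoter peaks below. In 899 divergent promoter peaks there were exactly 2 coding genes, and in 16 there were 3. Their number per autosome ran from 20 on chromosome 18 to 96 on chromosome 11, and they were 5.04% to 15.01% of the coding promoter peaks of an autosome.

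At a divergent promoter the genes lie back to back, and the transcription machinery assembles separately over each start while the DNA between the starts is shared as the upstream region of both. Such gene arrangements are common in mammalian genomes and are known for housekeeping functions such as DNA repair, replication, chaperones, mitochondria and the histone genes. Most of these promoters lie in CpG islands, stretches that kept the CpG dinucleotides lost from the rest of the genome. They usually lack a TATA box and instead carry sites for general activators, among them the SP family, which binds GC boxes, the trimeric factor NF-Y, which binds the CCAAT box, and ETS family factors. In lymphoid cells ETS proteins also act at lineage genes, E proteins bind E boxes at T-cell enhancers, and RBPJ is the DNA-binding partner of Notch.

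The bases between the 2 starts illustrate how single members differ. They come from a chosen set, picked in part by its cores, and do not show how common a core is. They are printed below 5′ to 3′ on the plus strand of mm9, from the base after the minus-strand start to the base before the plus-strand start, with the minus-strand gene named before the plus-strand gene. Capitals mark GGGCGG (SP core), CCAAT (NF-Y core) or CCGGAA (ETS core) on either strand. The first 3 are divergent H2A and H2B histone promoters, shown because they carry repeated NF-Y cores and neither an SP nor an ETS core. They lie at chr13:22134819-22135082, chr13:23663090-23663264 and chr3:96024804-96025043.
Hist1h2ag-Hist1h2bj: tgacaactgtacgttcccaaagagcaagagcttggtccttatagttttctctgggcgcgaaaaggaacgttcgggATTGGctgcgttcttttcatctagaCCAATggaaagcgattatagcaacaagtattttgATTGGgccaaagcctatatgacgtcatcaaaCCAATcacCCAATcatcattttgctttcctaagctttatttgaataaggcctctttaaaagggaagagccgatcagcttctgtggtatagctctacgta
Hist1h2ae-Hist1h2bg: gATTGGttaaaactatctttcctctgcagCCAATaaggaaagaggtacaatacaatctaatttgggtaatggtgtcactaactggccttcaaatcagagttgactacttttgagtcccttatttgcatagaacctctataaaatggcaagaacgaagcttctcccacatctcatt
Hist2h2ac-Hist2h2be: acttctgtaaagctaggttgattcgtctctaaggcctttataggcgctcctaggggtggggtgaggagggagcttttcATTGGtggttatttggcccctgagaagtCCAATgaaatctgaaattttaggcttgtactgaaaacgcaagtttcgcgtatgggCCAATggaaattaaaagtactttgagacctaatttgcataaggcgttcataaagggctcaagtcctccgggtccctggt

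The next 5 are promoters of housekeeping pairs, shown because they carry SP, ETS and NF-Y cores in different mixtures. They are Hspd1-Hspe1 (mitochondrial chaperonin and its cofactor, chr1:55144869-55144975), Sirt3-Psmd13 (a mitochondrial deacetylase and a proteasome subunit, chr7:148067769-148067866), Cox4nb-Cox4i1 (the second encodes a cytochrome c oxidase subunit, chr8:123192013-123192189), Prpf38a-Orc1 (a splicing factor and an origin recognition subunit, chr4:108251942-108252058) and Ndufaf2-Ercc8 (a respiratory complex assembly factor and a DNA repair factor, chr13:108948820-108948931).
Hspd1-Hspe1: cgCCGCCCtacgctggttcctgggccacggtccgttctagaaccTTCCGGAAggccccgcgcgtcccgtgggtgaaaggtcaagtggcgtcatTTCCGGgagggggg
Sirt3-Psmd13: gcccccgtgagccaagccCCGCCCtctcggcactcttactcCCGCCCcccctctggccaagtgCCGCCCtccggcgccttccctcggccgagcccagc
Cox4nb-Cox4i1: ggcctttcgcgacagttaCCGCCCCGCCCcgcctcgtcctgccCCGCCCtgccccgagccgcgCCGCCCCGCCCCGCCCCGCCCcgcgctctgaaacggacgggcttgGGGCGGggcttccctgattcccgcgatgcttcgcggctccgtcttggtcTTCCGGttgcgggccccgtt
Prpf38a-Orc1: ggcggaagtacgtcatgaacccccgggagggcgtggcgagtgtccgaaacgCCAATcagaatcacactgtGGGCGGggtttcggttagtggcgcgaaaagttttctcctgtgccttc
Ndufaf2-Ercc8: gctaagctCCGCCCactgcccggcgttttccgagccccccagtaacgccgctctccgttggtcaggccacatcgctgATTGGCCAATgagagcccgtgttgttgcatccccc

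The promoters of the tumor suppressors Trp53 (chr11:69393758-69393860) and Brca1 (chr11:101413194-101413462) are shown because they are textbook divergent pairs, and each carried 1 NF-Y core. Wrap53 encodes a telomerase-associated protein and Nbr1 an autophagy receptor.
Wrap53-Trp53: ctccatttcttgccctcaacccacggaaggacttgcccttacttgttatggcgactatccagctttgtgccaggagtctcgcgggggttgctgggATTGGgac
Brca1-Nbr1: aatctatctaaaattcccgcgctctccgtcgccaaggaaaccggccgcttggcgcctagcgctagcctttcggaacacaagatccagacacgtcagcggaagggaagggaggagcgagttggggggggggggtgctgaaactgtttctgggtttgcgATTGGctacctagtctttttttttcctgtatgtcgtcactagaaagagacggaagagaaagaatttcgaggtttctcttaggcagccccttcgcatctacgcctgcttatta

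The last 4 show other features. Zfp942-Zfp943 (chr17:22099419-22099518) and Zfp944-Zfp758 (chr17:22498368-22498419) are zinc finger gene pairs on chromosome 17 whose shared DNA is nearly the same, as the 52 bases of the shorter interval all occur as 1 run within the 100 bases of the longer. Ikzf5-Acadsb (chr7:138554036-138554114), which pairs an Ikaros family gene with a mitochondrial dehydrogenase gene, had none of the 3 cores between its starts. Tmem176b-Tmem176a (chr6:48791374-48791481), a pair of related transmembrane protein genes, had none of the cores and no CpG at all between its starts.
Zfp942-Zfp943: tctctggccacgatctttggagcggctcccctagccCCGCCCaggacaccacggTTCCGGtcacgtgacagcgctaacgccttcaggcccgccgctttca
Zfp944-Zfp758: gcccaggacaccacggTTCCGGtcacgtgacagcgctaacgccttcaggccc
Ikzf5-Acadsb: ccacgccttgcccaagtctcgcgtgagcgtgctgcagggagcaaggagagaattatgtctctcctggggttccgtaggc
Tmem176b-Tmem176a: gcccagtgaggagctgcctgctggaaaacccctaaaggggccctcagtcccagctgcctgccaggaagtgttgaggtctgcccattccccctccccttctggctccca

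First, the position of the starts was described, using the closest opposite-strand starts in each peak. In 765 peaks (83.6%) the genes lay head-to-head, with the plus-strand start to the right of the minus-strand start. The median distance in these was 117 bp (quartiles 62 and 235 bp), and the farthest starts were 1756 bp apart. Distances of 51 to 100 bp were the most frequent, with 195 peaks, and 138 peaks had starts 1 to 50 bp apart. In the remaining 150 peaks (16.4%) the transcripts overlapped at their 5′ ends, by a median of 188 bp and at most 1122 bp, or the starts fell on the same base, which occurred once (Rnaseh2a-Prdx2, a ribonuclease subunit and a peroxiredoxin). Over all 915 members the median signed distance was 95 bp, and the medians of single autosomes ran from 72 to 141 bp. With the most 5′ start of each gene inside the peak the median was 86 bp and the lower quartile −15.5 bp. For the closest starts the lower quartile was 33.5 bp, so more pairs overlapped with the most 5′ starts.

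**Figure D1:**
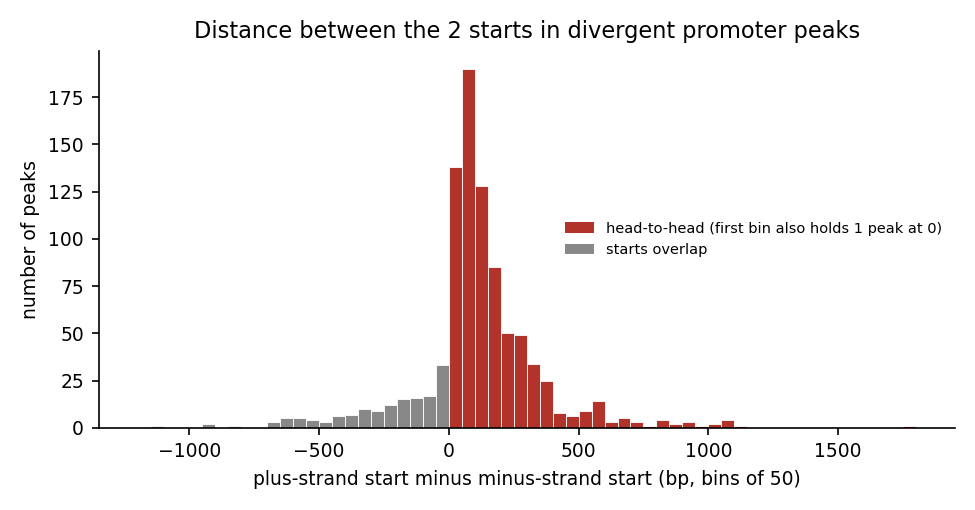
Signed distance between the closest opposite-strand coding starts in the 915 divergent promoter peaks (x axis, bp in bins of 50) against the number of peaks. Head-to-head pairs (red) pile up below 100 bp with a tail to 1756 bp, and pairs with overlapping 5′ ends (grey) reach 1122 bp of overlap.

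The extremes of the distribution were spread over genes of unrelated function. Dcun1d3-Lyrm1 and Arfrp1-Zgpat started on adjacent bases, 1 bp apart. The farthest head-to-head pairs were Mbd6-Ddit3 at 1756 bp and Rpl7-Rdh10 at 1112 bp. Ddit3 encodes a stress-induced transcription factor and Rpl7 a ribosomal protein. The deepest overlaps were Gm11175-Jund with 1122 bp, where Jund encodes an AP-1 factor, and Fam63b-Gm10642 with 923 bp. In both of these pairs the partner is a gene model with only a provisional name. Such symbols (Gm or Rik) stood in the closest pair of 232 members. When only manually annotated transcripts were used, the number of divergent promoter peaks dropped to 543.

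Within the peak, the pair of starts sat near the middle. The midpoint between the starts lay a median of 100.5 bp from the peak centre, to either side, and 49.8% of the midpoints were within 100 bp of it. In one-strand promoter peaks the median position of the coding starts in a peak was used instead. It lay a median of 101.5 bp from the centre, so the measures are not the same. The divergent promoter peaks reached to a similar extent beyond the start on both flanks. From the outermost minus-strand start to the left edge the median was 373 bp, and from the outermost plus-strand start to the right edge it was 387 bp. In a single peak the flanks were less even, with a median difference of 185 bp between them.

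Next, the size of the open region was compared with that of one-strand promoter peaks. The median width was 1021 bp in divergent promoter peaks (quartiles 876.5 and 1218.5 bp, range 288 to 2754 bp) and 900 bp in one-strand promoter peaks. More than 1000 bp was reached by 491 members (53.7%) and by 36.7% of one-strand promoter peaks. The median was higher on each of the 19 autosomes, by 119.7 ± 36.9 bp (mean ± SD, n = 19 autosomes). Width is partly set by the selection, since both starts had to fall inside the peak, and so it was not tested. Among peaks of 700 to 1200 bp the difference was 42.2 bp.

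The selection sets no length for the reach beyond the starts, but reach is part of the width and so is not free of the selection. It was measured from the outermost start of each strand to the peak edge downstream of it and averaged over both flanks. The median reach was 386 bp in divergent and 426 bp in one-strand promoter peaks. It was shorter in divergent promoter peaks on all 19 autosomes (difference −45.1 ± 32.3 bp, SD over 19 autosomes, adjusted p = 7.63e-06, exact two-sided sign test over autosomes with Benjamini-Hochberg adjustment). Autosomes stand in as the units of this and the following tests, and they are parts of the same list and not replicates of the cells. A raw p of 3.81e-06 is the smallest that the test can give. The divergent promoter peaks were wider as a whole and extended less far into each gene.

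**Figure D2:**
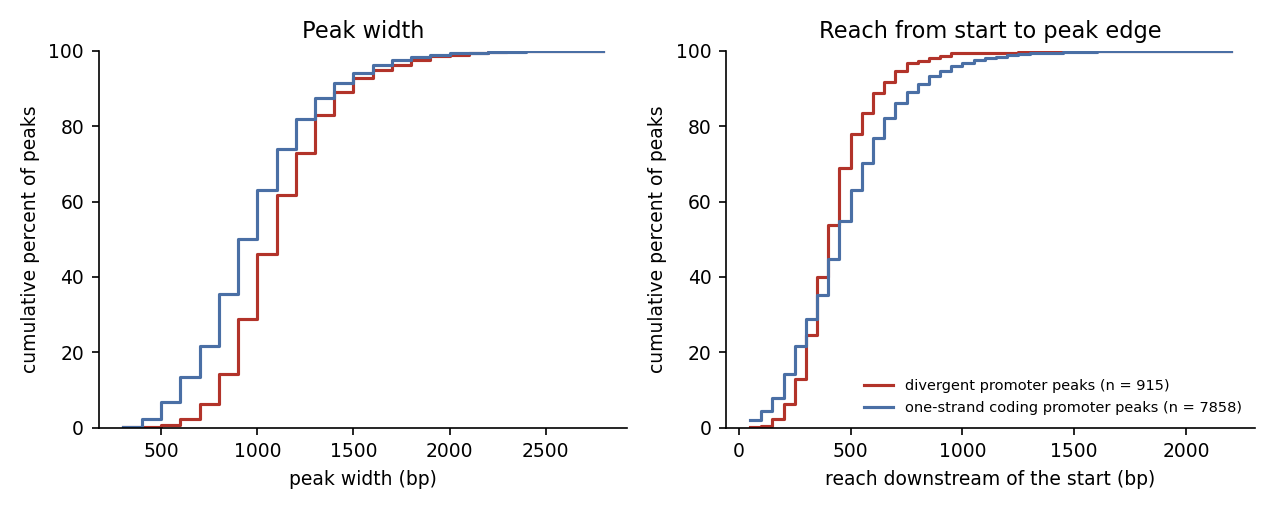
Cumulative percent of peaks (y axes) against peak width (left, bp) and reach from the outermost start to the downstream peak edge (right, bp), for 915 divergent (red) and 7858 one-strand (blue) promoter peaks. The red curve lies right of the blue for width, with medians of 1021 and 900 bp, and left of it over its upper part for reach, with medians of 386 and 426 bp.

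Width also varied among the members with the distance between the starts. Head-to-head peaks with starts 1 to 50 bp apart had a median width of 949 bp and those with starts over 500 bp apart had 1365 bp. The median reach went the other way, from 405.25 bp to 320.5 bp. Across the 765 head-to-head peaks Spearman's correlation of distance was 0.308 with width and −0.144 with reach, given as a description, since width has to exceed the distance and reach is part of the width. Members with overlapping 5′ ends had a median width of 1025 bp and a median reach of 568.5 bp, which includes DNA covered by both transcripts. The widest member was Mbd6-Ddit3 at 2754 bp, followed by Mepce-Zcwpw1 at 2241 bp and Limd2-Gm10840 at 2194 bp. The narrowest were Map4k5-Atl1 at 288 bp, Nudt22-Trpt1 at 331 bp and 4921536K21Rik-Dusp18 at 346 bp.

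The CpG content of the peaks was then determined. A peak was called CpG-rich when its observed to expected CpG ratio was at least 0.6 and its GC content at least 50%. This held for 855 divergent promoter peaks (93.4%), for 80.1% of one-strand promoter peaks and for 25.9% of all autosomal peaks. The share was higher in divergent than in one-strand promoter peaks on all 19 autosomes, by 13.01 ± 4.77 percentage points (SD over autosomes, adjusted p = 7.63e-06, exact sign test). The ratio itself had a median of 0.793 in divergent and 0.764 in one-strand promoter peaks, a difference of 0.0292 ± 0.0249 with the same sign on 19 of 19 autosomes (adjusted p = 7.63e-06, exact sign test). The median number of CpGs was 77 against 64. GC content was 62.4% against 61.9% and did not pass the test (0.410 ± 0.993 percentage points, higher on 12 of 19 autosomes, adjusted p = 0.359, exact sign test). In the central 200 bp it was lower in divergent promoter peaks and passed (−1.83 percentage points, lower on 15 of 19 autosomes, adjusted p = 0.0113, exact sign test).

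The difference in CpG ratio was sensitive to the set of peaks compared. Within CpG-rich peaks alone it was 0.00187 ± 0.0263 and missed the threshold (adjusted p = 0.777, exact sign test). It also missed the threshold when each gene was represented by its most 5′ start (0.0233, adjusted p = 0.251, exact sign test). Among the members, CpG-richness was 93.6% in head-to-head and 92.7% in overlapping pairs. By distance it was highest, 96.4%, for starts 51 to 100 bp apart and lowest, 84.9%, for starts over 500 bp apart.

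**Figure D3:**
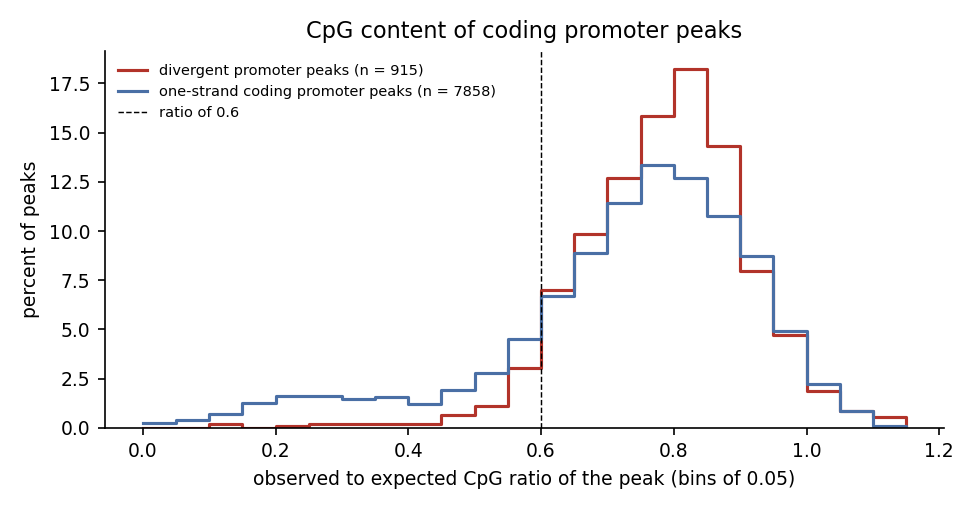
Observed to expected CpG ratio of divergent (red, n = 915) and one-strand (blue, n = 7858) promoter peaks (x axis, bins of 0.05) against percent of peaks, with a dashed line at 0.6. The blue line has a low shoulder below 0.6 that the red line nearly lacks, and the medians are 0.793 and 0.764.

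Only 60 members were not CpG-rich, 55 of them with a ratio under 0.6 and 7 with a GC content under 50%. The 10 with the lowest ratio were looked up after their values were seen. Lowest was Tmem176b-Tmem176a (0.132, 13 CpGs in 1211 bp). It was followed by 2010002M12Rik-Ifit1 (0.148, 5 CpGs in 543 bp), where Ifit1 is an interferon-induced gene, and by Smyd1-Cd8b1 (0.222, 16 CpGs in 994 bp), which pairs a muscle methyltransferase gene with the gene of the CD8 beta chain of T cells. Abi3-Gngt2 (0.252), Pecam1-Gm885 (0.322), with the adhesion molecule gene Pecam1, and H2-T22-Gm6034 (0.384), with a nonclassical MHC gene, were also in this set. The remaining members of the set were Dpep2-Dus2l (0.250), Ccdc116-Ydjc (0.337), Rasal3-A530088E08Rik (0.361) and Tmc6-Tmc8 (0.401).

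Motif cores were next searched on both strands of the central 200 bp of each peak, so that all peaks were scanned over equal length. The ETS core CCGGAA was found in 30.5% of divergent promoter peaks (279 of 915), in 20.9% of one-strand promoter peaks and in 9.51% of all autosomal peaks. The difference between divergent and one-strand promoter peaks was 10.7 ± 8.05 percentage points, positive on 17 of 19 autosomes (SD over autosomes, adjusted p = 0.00947, exact sign test). On single autosomes the share ran from 19.1% to 42.9% in divergent and from 17.2% to 25.5% in one-strand promoter peaks, so the ranges overlapped. The NF-Y core CCAAT was found in 27.5%, 20.9% and 19.2% of the same sets (difference 6.34 ± 8.24 points, higher on 16 of 19 autosomes, adjusted p = 0.0192, exact sign test). The E protein core CAGCTG was rarer, with 8.31% against 11.6% in one-strand promoter peaks and 21.4% in all autosomal peaks (difference −3.39 ± 4.69 points, lower on 16 of 19 autosomes, adjusted p = 0.0192, exact sign test).

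Of these differences, that of the ETS core passed the test under every alternative tried. The NF-Y difference missed it in peaks of 700 to 1200 bp (adjusted p = 0.165), with the most 5′ starts (0.207) and in a window at the midpoint of the starts (0.118), always with more NF-Y in divergent promoter peaks (exact sign tests). The E protein difference missed it in CpG-rich peaks alone (−1.64 points, adjusted p = 0.519, exact sign test) and in 5 other settings. The SP core GGGCGG was the most frequent, at 55.4% in divergent, 56.7% in one-strand and 23.3% in all autosomal peaks, and did not pass the test (adjusted p = 0.667, exact sign test). Over whole peaks it was more frequent in divergent promoter peaks by 4.72 points and passed the test (17 of 19 autosomes, adjusted p = 0.00316, exact sign test), and those peaks are also longer.

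The other cores did not pass in the central 200 bp. THAP11/ZNF143 (ACTACA) was closest, with 7.98% of divergent and 4.68% of one-strand promoter peaks (higher on 15 of 19 autosomes, adjusted p = 0.0624, exact sign test). In all autosomal peaks its share was 7.19%, near that of divergent promoter peaks. The difference between divergent and one-strand promoter peaks passed with the most 5′ starts (3.56 points, higher on 16 of 19, adjusted p = 0.0288, exact sign test). The RBPJ core TGGGAA was found in 14.2% and 12.04% (adjusted p = 0.434, exact sign test) and in 15.3% of all autosomal peaks. With the degenerate RBPJ core, which also allows TGAGAA, the shares were 20.1%, 17.97% and 26.9%. Over whole peaks, which are longer for divergent promoters, this degenerate core (5.48 points, adjusted p = 0.00316), YY1 (4.42 points, adjusted p = 0.0144) and NRF1 (2.99 points, adjusted p = 0.0416) passed as more frequent in divergent promoter peaks (exact sign tests). For the remaining cores the shares in divergent, one-strand and all autosomal peaks were 5.57%, 4.21% and 2.08% for NRF1 (GCGCATG), 3.17%, 1.68% and 0.772% for CREB (TGACGTCA), and 6.99%, 5.82% and 4.05% for YY1 (AAGATGG). They were 6.01%, 6.02% and 4.82% for USF/MYC (CACGTG), 6.67%, 7.25% and 19.98% for RUNX (TGTGGT), and 2.62%, 2.24% and 5.01% for TATAAA. A core is a match of letters and was not tested for binding. At least 2 of the SP, NF-Y and ETS cores occurred together in 299 members (32.7%), all 3 in 41, and none of the 3 in 217 (23.7%).

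**Figure D4:**
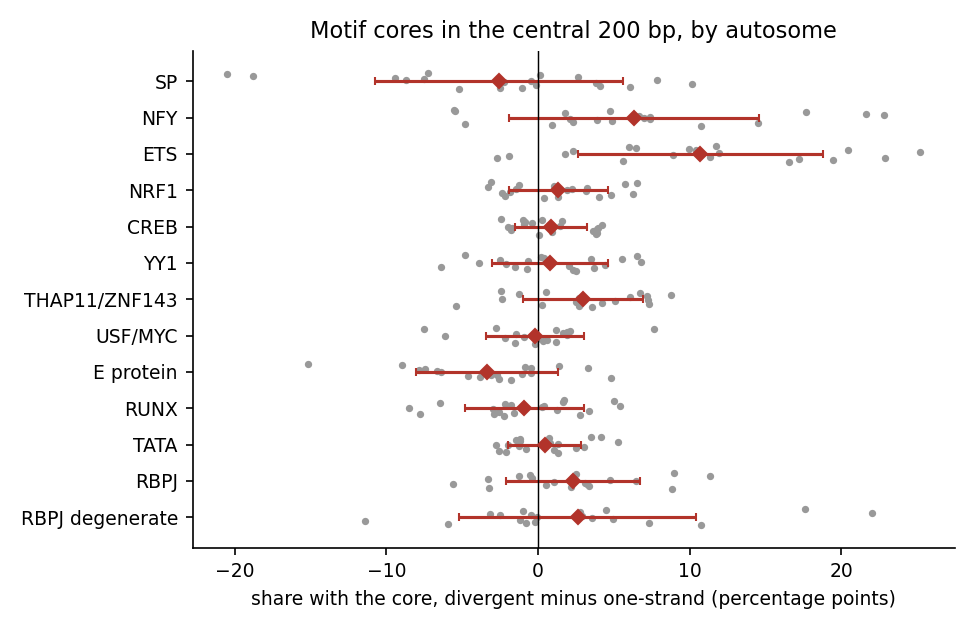
Difference in the share of peaks with each of 13 motif cores in the central 200 bp, divergent minus one-strand promoter peaks (x axis, percentage points). Grey points are the 19 autosomes and red diamonds with bars are their mean ± SD. ETS lies at 10.7, NFY at 6.34 and E protein at −3.39 points, and the means of the other cores lie between −2.58 and 2.97.

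To locate the cores, the DNA between the starts was compared with the same length of DNA downstream of each start, in the 561 head-to-head members with starts 50 to 400 bp apart. The comparison was added after the data had been seen. Between the starts, NF-Y cores occurred 4.46 times per kb against 0.860 downstream (higher on 19 of 19 autosomes), and SP cores 6.78 times against 3.06 (higher on 18, with a tie on the other). Both had an adjusted p of 5.72e-05 (exact sign test). An NF-Y core lay between the starts of 218 of these members (38.9%) and an SP core between those of 325 (57.9%). USF/MYC cores (0.629 against 0.208 per kb, adjusted p = 0.000824), THAP11/ZNF143 cores (0.776 against 0.270, adjusted p = 0.00896) and CREB cores (0.259 against 0.0674, adjusted p = 0.0119) were also denser there by the exact sign test.

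YY1 and E protein cores were sparser between the starts than downstream. YY1 cores had 0.157 against 0.427 per kb (adjusted p = 0.000824, exact sign test) and E protein cores 0.259 against 0.646 (adjusted p = 0.000725, exact sign test). For ETS cores the densities were 2.29 and 1.44 per kb and the difference did not pass (adjusted p = 0.144, exact sign test). The CpG ratio was higher between the starts, at a median of 0.911 against 0.836 (higher on 17 of 19 autosomes, adjusted p = 0.00182, exact sign test), at a GC content of 63.9% against 63.3% (adjusted p = 0.694, exact sign test).

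An excess of NF-Y and SP cores upstream of the start was also seen in one-strand promoters. Measured from the most 5′ start, NF-Y cores of one-strand promoters numbered 3.29 per kb from 100 to 50 bp upstream and 0.575 per kb from 50 to 100 bp downstream. The values for head-to-head members were 4.196 and 0.810 per kb. ETS cores had their highest density in the 50 bp before the start, with 3.93 per kb in head-to-head members and 2.42 per kb in one-strand promoters. SP cores were highest in the same 50 bp, and here the one-strand promoters had more, 10.3 against 7.78 per kb. Each member gives 2 starts to this profile, and cores between close starts are counted from both.

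**Figure D5:**
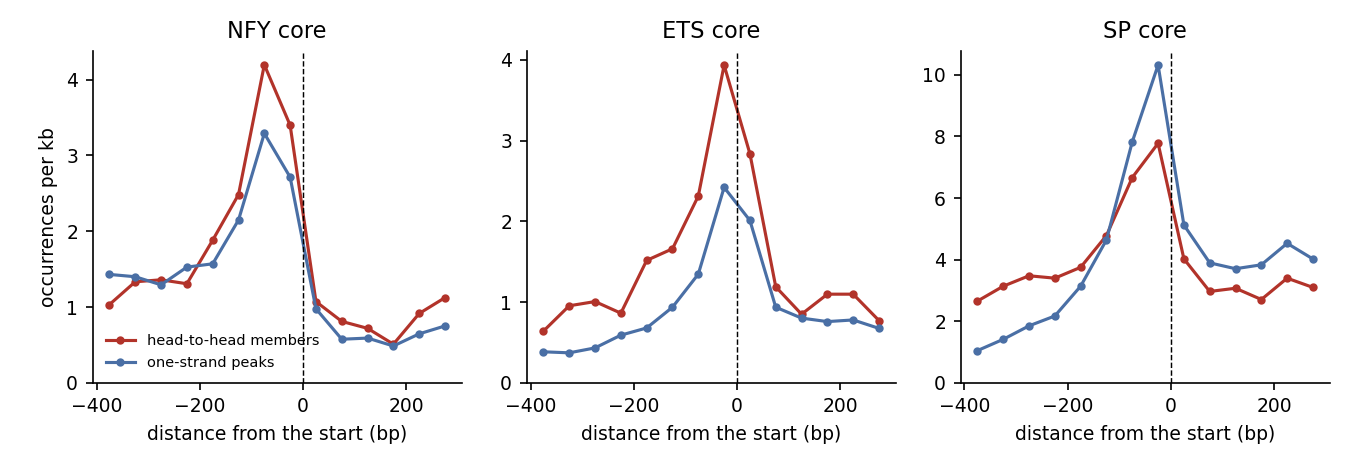
Occurrences per kb of the NFY, ETS and SP cores on either strand (y axes) in bins of 50 bp around the most 5′ coding start (x axes, negative is upstream), for 1530 starts of head-to-head members (red) and 7858 one-strand promoters (blue). NF-Y peaks at 50 to 100 bp and ETS and SP within 50 bp upstream, with red above blue for NF-Y and ETS and below for SP there.

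The shares of the NF-Y and ETS cores were also listed by the distance between the starts. In head-to-head members with starts at most 100 bp apart (n = 333), 18.6% had an NF-Y core and 38.1% an ETS core in the central 200 bp. In those with starts farther apart (n = 432) it was 37.0% and 23.6%. For SP cores it was 52.3% and 57.4%. In a 200 bp window at the midpoint of the starts the shares were 21.9% and 44.9% for NF-Y and 53.2% and 28.2% for ETS. These are descriptions, since the limit of 100 bp was chosen after the data had been seen. A window of fixed length also covers other positions relative to the starts when these lie farther apart. ETS cores were densest within 50 bp upstream of a start and NF-Y cores 50 to 100 bp upstream. How much of each zone the windows took in at each distance was not measured. A difference in the promoters therefore cannot be told apart from an effect of position.

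TATA boxes were rare. The word TATAAA began 40 to 20 bp upstream of 3 of 1530 starts of head-to-head members (0.196%, 95% Wilson interval 0.0667% to 0.575%) and of 55 of 7858 one-strand starts (0.700%, interval 0.538% to 0.910%). The 3 starts belonged to the histone gene Hist1h2bg, whose promoter is printed above, and to Cybasc3 and 2810021B07Rik. The GC skew, (G − C)/(G + C) on the coding strand, averaged 0.0869 in the 200 bp downstream of divergent starts and 0.0807 downstream of one-strand starts (adjusted p = 0.200, exact sign test), and −0.00818 and 0.0113 upstream (adjusted p = 0.0954, exact sign test). Both outcomes changed with the settings. Downstream, the difference passed over 100 bp of DNA (0.00972, adjusted p = 0.00664, exact sign test) and had the opposite sign with the most 5′ starts (−0.00127). Upstream, it passed with the most 5′ starts (−0.0285, adjusted p = 0.000153) and had the opposite sign over 100 bp (0.00208, exact sign tests). The 200 bp upstream of a divergent start can run past the partner's start into the partner gene. The closest starts lay a median of 95 bp apart, and one-strand promoters have no such coding partner in the peak. How often this happened was not measured, so an upstream difference cannot be told apart from this layout.

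It was then asked how often a divergent pair of the annotation was open at all. Among autosomal coding genes 1244 opposite-strand pairs with starts within 1000 bp were annotated. Of these pairs, 918 (73.8%) had starts of both genes in the same peak, 15 in different peaks, 88 had a peak at 1 gene only and 223 (17.9%) at neither. The share with a common peak was 87.1% for head-to-head starts 1 to 100 bp apart, 79.7% at 101 to 200 bp, 81.1% at 201 to 300 bp, 71.8% at 301 to 500 bp and 42.6% at 501 to 1000 bp. At the last distance 33.7% had a peak at 1 gene only. Overlapping pairs shared a peak in 58.0%. Of the 2459 genes in such pairs 78.4% had a start in a peak, against 39.3% of the 18951 other coding genes and 43.8% of all. The share was higher for paired genes on 19 of 19 autosomes (37.2 ± 6.46 percentage points, SD over autosomes, p = 3.81e-06, exact sign test). With pairs limited to 300 bp it was 83.6% against 40.1%. A peak shared by both genes of a pair was counted for each of them. The share therefore does not show that each paired gene is open by itself.

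The functions of the member genes were described with 17 lists of genes picked by symbol. Of the 9384 autosomal coding genes with a start in a peak, 19.6% lay in a divergent promoter peak, and the lists are read beside this share without a test. Replication-dependent histones had the largest share, with 18 of 43 genes (41.9%). Mitochondrial ribosomal proteins had 24 of 72 (33.3%), the mitochondrial respiratory chain 22 of 74 (29.7%), splicing factors 14 of 47 (29.8%) and aminoacyl-tRNA synthetases 11 of 37 (29.7%). RNA polymerase subunits (7 of 24), DNA replication (11 of 38), DNA repair (16 of 57) and chaperones (14 of 52) lay between 26.9% and 29.2%. Close to the share of all genes were transmembrane proteins of the TMEM series (27 of 127, 21.3%), the proteasome (10 of 48, 20.8%), cilia and tubulin folding (4 of 20) and cytosolic ribosomal proteins (13 of 69, 18.8%). Zinc finger genes (33 of 266, 12.4%) and T-cell and Notch genes (3 of 33, 9.09%) were below it. Of the 47 T-cell and Notch genes, which include markers of the labelled cell type, 33 had a start in a peak. Among all 21410 autosomal coding genes it was 9384 (43.8%). For mitochondrial ribosomal proteins it was 72 of 77, so a high count is not particular to T-cell genes. None of the 1106 olfactory receptor and 51 keratin genes had a start in a peak. Symbols collect a few genes that do not belong, such as Cox4nb, which is named as a neighbor of Cox4, and some symbols stand for 2 gene models.

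The replication-dependent histones were present mostly as H2A and H2B pairs. All 8 H2A-H2B members were head-to-head, with 175 to 268 bp between the starts and 2 to 5 NF-Y cores and no SP or ETS core in that DNA. Their peaks were 958 to 2123 bp wide. Hist2h2ac-Hist2h2be on chromosome 3 was the widest and also held Hist2h2ab, and the other 7 lay on chromosome 13. All were CpG-rich over the whole peak, with ratios of 0.832 to 0.994, while between the starts of Hist1h2ae-Hist1h2bg the ratio was 0.158 with 1 CpG. Histone genes are near-identical copies and 1 alignment was kept per read. Reads over the genes could thus be placed at the wrong copy, and the presence of a peak at a given copy is uncertain. The DNA between the starts differs among the pairs printed above, and the placement of reads was not tested. The other histone member was Gm17658-Hist1h4d.

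In 29 members both genes were in a list, and in 17 both were in the same list. Beside the histones these included Mrpl46-Mrps11, a pair of mitochondrial ribosomal protein genes 53 bp apart, and Hspd1-Hspe1 (108 bp). Zinc finger pairs were Zfp942-Zfp943 (101 bp), Zfp944-Zfp758 (53 bp), Zfp668-Zfp646 (16 bp) and Zbtb25-Zbtb1 (706 bp). The first 2 share their sequence between the starts, as printed above, so the uncertainty named for the histones applies to them as well. Pairs across lists joined different housekeeping functions, for example Prpf38a-Orc1 (118 bp), Orc3-Rars2 of DNA replication and mitochondrial tRNA charging (13 bp), Dnajc2-Psmc2 of chaperones and proteasome (32 bp), Rps28-Ndufa7 of the ribosome and the respiratory chain (29 bp) and Tmem111-Fancd2, the second a DNA crosslink repair gene (44 bp).

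Among divergent pairs known from textbooks, the 7 described here were members and lay head-to-head. Hars-Hars2, the cytosolic and mitochondrial histidyl-tRNA synthetases, started 26 bp apart in a peak of 1022 bp. Psmb9-Tap1, an immunoproteasome subunit and the peptide transporter of antigen presentation, started 38 bp apart in a peak of 1381 bp. These were the closest of the set. Sirt3-Psmd13 (99 bp, peak of 923 bp), Wrap53-Trp53 (104 bp, 1494 bp) and Hspd1-Hspe1 (108 bp, 1319 bp) were intermediate, and Brca1-Nbr1 (270 bp, 1358 bp) and Atm-Npat (307 bp, 1197 bp), a DNA damage kinase gene and a gene of histone transcription, were the farthest. Mcm4-Prkdc, Ppat-Paics, Col4a1-Col4a2, Col4a3-Col4a4, Surf1-Surf2 and Mrps12-Sars2 were not members. None of their annotated starts lay in a peak of the list, including genes of replication and purine synthesis that dividing cells use. Why they are missing from the list was not tested.

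The members with a T-cell or Notch gene were Smyd1-Cd8b1, Dtx3l-Parp9 and Ikzf5-Acadsb. Dtx3l, which encodes a ubiquitin ligase of the Deltex family, and its partner Parp9 overlapped by 139 bp in a peak of 699 bp with a CpG ratio of 0.713. Smyd1 and Cd8b1 started 603 bp apart in a CpG-poor peak of 994 bp. Ikzf5 and Acadsb started 80 bp apart in a peak of 1028 bp. The 3 pairs thus represented different arrangements, overlapping, far apart and close.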

How the data were processed

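The 6 ATAC-Seq libraries (3 GSI, 3 DMSO, groups taken from the labels) were made with a commercial kit. As the study's methods describe, reads were trimmed with trimGalore, aligned to mm9 with HISAT2 2.2.1 keeping 1 alignment per read, and cleared of duplicates with Picard. Peaks were called per library with MACS2 without an input, kept if found in 3 of the 6 libraries and cleared of blacklisted regions. A shift of read ends for the transposase offset is not mentioned. The deposited list holds the peak positions in bp, counted from 0 and printed here counted from 1, and a score that the authors left at 0 for every peak. It has no value per library, so read depth could not be used, a peak present in 1 treatment cannot be told from others, and the planned comparison of GSI with DMSO was not made. Because repeats are placed at 1 of several equal sites, peaks at near-identical genes are uncertain.

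Starts of 51723 protein-coding transcripts were taken from GENCODE vM1 on NCBIM37 (the same assembly as mm9), and bases were read from that genome. Features were computed with Python 3.11.15, numpy 2.4.6, pandas 2.3.3, scipy 1.17.1 and matplotlib 3.10.9. Medians or shares of divergent and one-strand promoter peaks were subtracted within each of 19 autosomes, and the signs of the differences were compared in an exact two-sided sign test, with a threshold of 0.05 after Benjamini-Hochberg adjustment over 13 motif cores, and separately over reach, CpG content and GC skew. Wilson intervals cover counting error only. The named members were textbook pairs (some are not reported here), members with both genes in a list, the widest and narrowest, those with the smallest and largest start distance, and those with a T-cell or Notch gene. The members and lists were chosen with earlier results of these data known. Alternatives were other start choices, annotation levels, width bands, CpG-rich peaks only, other windows and other pair distances. Removal of transcripts with incomplete 5′ ends, reach from the most 5′ start, head-to-head members only, the split by distance, the DNA between starts and the gene bodies were added after the data had been seen.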

Additional observations from a re-analysis of the deposited data

How the results depend on the processing

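The list has no value per library, so leaving out a replicate was not possible, and no depth could be weighed. No paired analysis was possible because replicates have no columns of their own. Results are given as divergent minus one-strand promoter peaks. The shorter reach, the larger share of CpG-rich peaks and the larger share of paired genes with a start in a peak kept their direction. They passed the test under every alternative tried for them, but not at the same size. The difference in CpG-rich peaks was 13.01 points over whole peaks and 4.55 points in the central 200 bp. Reach from the most 5′ start differed by −37.4 bp (adjusted p = 0.0384, exact sign test). The number of members was 543 with manual annotation only and 661 to 938 otherwise. Limiting both classes to widths of 700 to 1200 bp gave a width difference of 42.2 bp, by construction. The reach difference there was −91.0 bp, in part by construction, since reach is part of a width that was held similar. In this band 1 motif core passed the threshold in place of 3. There were 6 over whole peaks (SP, NF-Y, ETS, NRF1, YY1 and degenerate RBPJ) and 1 in the window at the midpoint of the starts. Among CpG-rich peaks only, the difference in CpG ratio was 0.00187 and no longer passed, and that in GC content was −0.760 percentage points, which reversed it. With the most 5′ starts the difference in ratio was 0.0233 and did not pass. In the central 200 bp the difference in GC content was −1.83 points (reversed and now passing). GC skew downstream was −0.00127 (reversed) with the most 5′ starts and 0.00972 (now passing) over 100 bp, and upstream −0.0285 (now passing) and 0.00208 (reversed). The upstream window can run into the partner gene, as described above. Among the cores that had not passed, signs reversed for YY1 (−0.284 points in the width band, −1.74 at the midpoint), USF/MYC (0.130 in the band, 1.51 over whole peaks, 0.971 at the midpoint), RUNX (0.154 in the band, 0.955 in CpG-rich peaks, 0.946 over whole peaks), SP (4.72 over whole peaks, now passing) and TATA (−0.535 over whole peaks). Except where the construction is named, the cause was not tested.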

Other observations

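Genes with a divergent promoter peak differed from other coding genes with a start in a peak in the DNA beyond the promoter, in a comparison added after the data had been seen. Their median length was 17.9 kb against 23.7 kb (shorter on 17 of 19 autosomes, adjusted p = 0.00121, exact sign test). A peak without any annotated start lay inside 23.8% of the 1835 divergent genes and 35.4% of the 7549 others (lower on 18 of 19 autosomes, adjusted p = 0.000381, exact sign test). Around the promoter peak itself, start-free peaks within 50 kb averaged 1.91 for divergent and 2.34 for one-strand promoter peaks (lower on 17 of 19 autosomes, adjusted p = 0.00121, exact sign test).

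Since the lengths differed, the share was also taken within length classes. Among genes of 20 to 60 kb it was 29.4% against 40.9% (lower on 16 of 19 autosomes, adjusted p = 0.00553, exact sign test). Among genes of 5 to 20 kb it was 15.6% against 15.7% (difference −1.01 ± 8.82 points, SD over autosomes, p = 1, exact sign test).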
